A study of Mus musculus with 14 samples.

Results

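Transcripts of 6 genes for leukocyte adhesion were followed by RNA-Seq in mouse livers and in mouse pancreatic stellate cells (PSCs): Icam1, Icam2, Vcam1, Sele, Selp and Selplg. They were matched by name, as a set of endothelial adhesion molecules, selectins and a leukocyte ligand of selectins, with earlier results of these data known, so that the shares of members counted below are descriptions. All 6 were listed among the 54532 genes of the liver count table and among the 16481 genes of the PSC table. In the livers, Icam1, Icam2, Vcam1, Selp and Selplg passed the filter on low counts and were tested with 15118 genes in all, and Sele did not pass. Each of the 5 had at least 34 counts in every liver, so none passed through its highest group alone. In the PSCs, Icam1, Vcam1 and Selp passed the filter among 15145 genes tested.

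The livers came from a mouse model of pancreatic cancer in which 100000 KPCY cells, a mouse pancreatic tumor line that carries a yellow fluorescent protein, were placed in the pancreas tail of mice aged 8 to 12 weeks, and were collected on day 20. There were 2 livers of WT mice, 3 of TRPV4-KO mice and 3 of WT mice given the TRPV4 antagonist GSK219 (GSK2193874) at 10 mg/kg by daily gavage in a cyclodextrin carrier. TRPV4 is a calcium-permeable channel, its loss in the TRPV4-KO mice was global, and the injected cells kept a working Trpv4 gene. All 8 mice had thus received tumor cells, and tumor-free livers were not analysed here. The study's methods describe the WT mice as Piezo1 fl/fl animals, and whether they were given the carrier is not stated. The PSCs came from 3 preparations grown on Matrigel, each treated with Yoda1, an agonist of the channel PIEZO1, at 25 μM or with its solvent DMSO. The treatment time is given as 24 hours in the methods and as 72 hours in a legend.

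Leukocytes leave the blood in steps. Selectins on activated endothelium (E-selectin from Sele, P-selectin from Selp) catch sugar-bearing ligands such as PSGL-1 from Selplg, which leukocytes carry, and slow the cell to a roll. Chemokine signals then switch on leukocyte integrins, which bind ICAM-1, ICAM-2 and VCAM-1 on the vessel wall and stop the cell before it crosses. Inflammatory cytokines are known to raise ICAM-1, VCAM-1 and the selectins through NF-κB and related factors, whereas ICAM-2 is carried by resting endothelium, and P-selectin is also stored in platelets. In liver, sinusoidal endothelium, Kupffer cells and stellate cells can carry ICAM-1 and VCAM-1.

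Since cytokines are known to act on several of these genes through their promoters, the bases just before the start of those that the RefSeq promoter table (GRCm38.p6) holds are shown here, 250 bases each, 5′ to 3′ on the strand of the gene. The table matched 3 of the 6 members: Icam1 at chr9:21015690-21015939, Sele at chr1:164047984-164048233 and Selp at chr1:164115014-164115263, all on the plus strand. Capitals mark matches on either strand to the letters of known motifs. For STAT factors the letters searched were TTCNNNGAA. For AP-1 they were TGANTCA. For the TATA box they were TATAAA. A shorter NF-κB-like run, GGANATTCC, was added after the windows had been read.
Icam1: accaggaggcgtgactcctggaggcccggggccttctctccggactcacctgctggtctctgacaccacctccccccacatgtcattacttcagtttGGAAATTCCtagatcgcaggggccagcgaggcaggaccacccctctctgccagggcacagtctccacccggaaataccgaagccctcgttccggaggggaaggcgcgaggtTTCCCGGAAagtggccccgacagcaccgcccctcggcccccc
Sele: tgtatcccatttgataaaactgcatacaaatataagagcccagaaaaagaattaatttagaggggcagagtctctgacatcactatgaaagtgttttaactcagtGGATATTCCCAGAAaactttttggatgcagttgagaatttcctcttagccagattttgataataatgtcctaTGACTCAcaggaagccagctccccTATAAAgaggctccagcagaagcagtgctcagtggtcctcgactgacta
Selp: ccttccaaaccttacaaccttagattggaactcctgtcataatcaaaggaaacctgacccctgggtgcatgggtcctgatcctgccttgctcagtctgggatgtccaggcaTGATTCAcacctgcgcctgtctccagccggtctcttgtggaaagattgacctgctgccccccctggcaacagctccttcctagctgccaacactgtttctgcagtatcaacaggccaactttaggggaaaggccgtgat
Icam1 held the NF-κB-like run from base -153 to -145 and a STAT match from -42 to -34, counted back from the start of transcription in the promoter table. For Icam1 that start lies shortly before the gene start of the count table, at 21015985. Sele held the NF-κB-like run from -145 to -137, which overlaps a STAT match from -140 to -132, then an AP-1 match from -73 to -67 and a TATA match from -49 to -44. Selp held an AP-1 match from -139 to -133. Among 32851 promoters of the table, 7.02% held the STAT letters in the same window, 6.75% the AP-1 letters, 12.4% the TATA letters and 0.819% the NF-κB-like run. Because that run was added after reading these windows, its share is no measure of enrichment in Icam1 and Sele. The full NF-κB consensus, which 7.25% of promoters held, was not among the letters of these 3 windows. These matches describe letters and no bound factor was measured.

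Total counts ran from 15567031 to 17395299 per liver, and the recovered reads of the PSC libraries from 27312894 to 39070539. The targeted gene Trpv4 had 43 and 53 counts in the WT livers, 15, 5 and 23 in the TRPV4-KO livers and 20, 30 and 36 in the GSK219 livers, so reads remained in the knockout, and which part of the gene is deleted was not known from the table. Livers differed in sex-linked reads: 1 liver of each group (WT replicate 1, replicate 3 of TRPV4-KO, replicate 3 of GSK219) had between 13681 and 15754 Xist counts and 56 to 252 Y-linked counts, and the other 5 had 0 to 7 Xist counts and 2444 to 2803 Y-linked counts. By which of these counts was larger, the former are called livers with Xist reads and the latter livers with Y-linked reads. The labels give no batch. In bulk tissue, fewer cells of a type and less RNA per cell cannot be told apart.

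In the livers, both WT livers exceeded all 6 livers of the other groups in Icam1, Vcam1, Selp and Selplg, a pattern shared by 10.0% of the 15118 genes tested. Fitted levels in WT were between 1.52 and 2.69 times those in TRPV4-KO and between 1.52 and 2.60 times those in GSK219 livers. None of the 5 members reached an adjusted p under 0.05 by edgeR, and fitted log2 differences between TRPV4-KO and GSK219 livers lay between -0.11 and 0.15. Levels below are CPM, read counts scaled to the normalized library total, and a gene was called where its adjusted p was under 0.05 and its log2 fold change over 1 in size.

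Icam1 (ENSMUSG00000037405, chromosome 9 from 21015985 to 21028817, plus strand) encodes ICAM-1, the ligand of the leukocyte integrins LFA-1 and Mac-1. It measured 37.7 and 30.2 CPM in the WT livers, 17.1, 19.8 and 23.2 CPM in the TRPV4-KO livers and 19.6, 22.2 and 22.5 CPM in the GSK219 livers. Both WT livers were above every other liver, and the TRPV4-KO and GSK219 ranges overlapped. Group means were 34.0 ± 5.29 CPM (SD, n = 2), 20.02 ± 3.02 CPM (SD, n = 3) and 21.4 ± 1.63 CPM (SD, n = 3). The log2 fold change of WT over TRPV4-KO was 0.76 (SE 0.16, edgeR adjusted p = 0.10), and that of WT over GSK219 was 0.66 (SE 0.16, edgeR adjusted p = 0.43). It had the smallest SE of the 5 members in both comparisons. The difference from TRPV4-KO passed an adjusted p of 0.05 under other settings. These were 0.0061 with DESeq2 and, with edgeR, 0.031 with a term for sex-linked reads, 0.048 with a block for the replicate number and 0.027 without TRPV4-KO replicate 3. Over the alternatives that kept both WT livers, the adjusted p ran from 0.0061 with DESeq2 to 0.32 with edgeR. Its log2 fold change stayed below 1 in each of them.

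Icam2 (ENSMUSG00000001029, chromosome 11 from 106377656 to 106388075, minus strand) encodes ICAM-2, a short ligand of LFA-1. Its levels were 6.43 and 4.43 CPM in WT, 3.35, 2.20 and 5.15 CPM in TRPV4-KO and 3.78, 2.84 and 4.12 CPM in GSK219 livers. The WT livers were above the 3 GSK219 livers but overlapped the TRPV4-KO group, whose replicate 3 lay between them. The log2 fold change was 0.60 (SE 0.37) over TRPV4-KO and 0.60 (SE 0.37) over GSK219, with edgeR adjusted p-values of 0.45 and 0.74. The 95% confidence interval of the first ran from -0.25 to 1.45, so both equal levels and a difference above 2-fold lay within it. The values moved with single livers: they were 0.32 and 0.30 without WT replicate 1, and over TRPV4-KO 0.35 without TRPV4-KO replicate 2 and 0.97 without its replicate 3.

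Vcam1 (ENSMUSG00000027962, chromosome 3 from 116109949 to 116129688, minus strand) encodes VCAM-1, which binds the integrin VLA-4 on monocytes, lymphocytes and eosinophils. It had more counts than the other 5 genes in both WT livers, but fewer than Icam1 in TRPV4-KO replicate 2 and in GSK219 replicates 1 and 3, with 958 and 661 counts in WT, 364, 209 and 446 in TRPV4-KO and 215, 376 and 337 in GSK219 livers. After normalization these were 59.3 and 38.5 CPM, then 23.0, 13.5 and 25.8 CPM, then 13.5, 22.7 and 20.1 CPM. The lower WT liver was still well above the highest of the other 6, at 25.8 CPM. WT livers were 2.35-fold above TRPV4-KO livers by the fit (log2 fold change 1.23, SE 0.32, edgeR adjusted p = 0.14) and 2.60-fold above GSK219 livers (log2 fold change 1.38, SE 0.32, edgeR adjusted p = 0.42). DESeq2 called Vcam1 in both, with adjusted p-values of 0.010 and 0.014, and its adjusted p over all alternatives ran from 0.010 to 0.68 against TRPV4-KO and from 0.014 to 1.0 against GSK219.

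**Figure D1:**
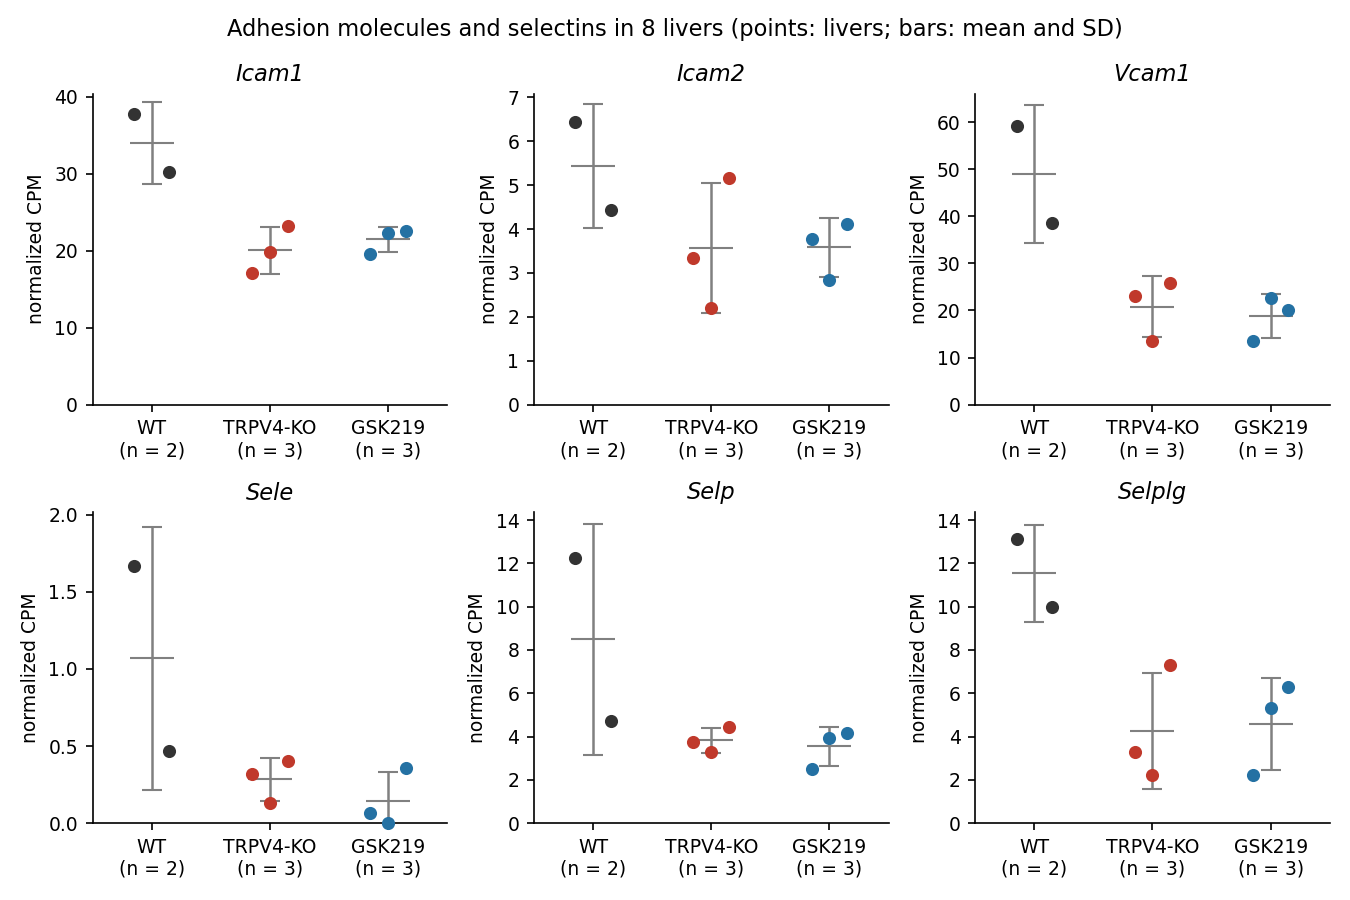
Normalized CPM (vertical axes, starting at 0) of the 6 genes in each liver, with points for livers and grey bars for the mean and SD of WT (n = 2), TRPV4-KO (n = 3) and GSK219 (n = 3). For Icam1, Vcam1, Selp and Selplg both WT points lie above all other points, by a narrow margin for Selp (4.72 against 4.46 CPM). The same holds for Sele, from few counts (0.466 against 0.405 CPM). For Icam2 the highest TRPV4-KO point lies between the WT points.

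Of the 2 selectins, Sele had the fewer counts in every liver. Sele (ENSMUSG00000026582, chromosome 1 from 164048234 to 164057677, plus strand) had 27 and 8 counts in WT, 5, 2 and 7 in TRPV4-KO and 1, 0 and 6 in GSK219 livers. Summed over livers this was 35, 14 and 7 counts. Where the count was 0, in GSK219 replicate 2, a level of up to 0.184 CPM remained possible, from counting error alone. WT replicate 2, at 0.466 CPM, was close to the highest TRPV4-KO liver at 0.405 CPM. Without the filter on low counts, the log2 fold change of Sele was 1.84 over TRPV4-KO (SE 0.84, edgeR adjusted p = 0.42) and 2.81 over GSK219 (SE 0.91, edgeR adjusted p = 0.56).

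Selp (ENSMUSG00000026580, chromosome 1 from 164115264 to 164150026, plus strand) measured 12.2 and 4.72 CPM in WT, 3.73, 3.30 and 4.46 CPM in TRPV4-KO and 2.52, 3.93 and 4.18 CPM in GSK219 livers. WT replicate 1 stood apart, and WT replicate 2 was only just above the other groups. Its log2 fold change was 1.14 over TRPV4-KO (SE 0.40, edgeR adjusted p = 0.21) and 1.26 over GSK219 (SE 0.40, edgeR adjusted p = 0.54). These values rested on 1 liver: without WT replicate 1 they were 0.31 and 0.41. The noncoding gene Gm16548 overlaps the end of Selp on the other strand for 1436 bases, with 71 and 55 counts in WT, 47, 46 and 44 in TRPV4-KO and 60, 76 and 57 in GSK219 livers. Gm16587, also on the other strand and within Selp, had 3 to 12 counts per liver. Since it is not given whether the counting used strand, reads of Selp and of these genes may not have been told apart. Antisense genes that overlap Icam1 and Vcam1 had at most 2 counts in any liver.

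Selplg (ENSMUSG00000048163, chromosome 5 from 113818536 to 113832644, minus strand) encodes PSGL-1, the leukocyte ligand of P-selectin, and is the only member whose product is carried mainly by leukocytes. It measured 13.1 and 9.97 CPM in WT, 3.29, 2.20 and 7.29 CPM in TRPV4-KO and 2.20, 5.32 and 6.28 CPM in GSK219 livers. The WT livers lay above all others, and the TRPV4-KO and GSK219 groups each spread widely, with replicate 2 the lowest in the former and replicate 1 in the latter. The fold of Selplg over TRPV4-KO was 2.69 (log2 fold change 1.43, SE 0.54, edgeR adjusted p = 0.23), and that over GSK219 was 2.504 (log2 fold change 1.32, SE 0.54, edgeR adjusted p = 0.58). Without TRPV4-KO replicate 3, its log2 fold change over TRPV4-KO was 2.07 and it was called (edgeR adjusted p = 0.042, in a range from 0.042 to 0.77 over all alternatives). Selplg lies 789508 bases from Trpv4 on the same chromosome. Its means were 4.26 ± 2.68 CPM in TRPV4-KO and 4.60 ± 2.13 CPM in GSK219 livers (SD, n = 3 each).

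Counted over WT against TRPV4-KO, 0 of 5 members were called, where 0.265% of all genes were, in either direction. At an unadjusted p under 0.05, 4 of 5 were higher in WT, against 9.5% of all genes, and for 4 of 5 every WT liver was above every TRPV4-KO liver, against 17.7%. All 5 had a fitted log2 fold change above 0, as 48.8% of genes did, and 3 had one over 1, as 7.89% did. The median log2 fold change of the 5 was 1.14, and that of all genes was -0.01. Against GSK219, edgeR called 0 of 5 members, and 0.0% of all genes, although 1242 genes, or 8.22%, had an unadjusted p under 0.05 and DESeq2 called 74. There, 4 of 5 members were higher in WT at an unadjusted p under 0.05 (5.87% of all genes), and for 5 of 5 the WT livers were above every GSK219 liver (15.6%). Again all 5 were above 0 (49.7% of genes) and 3 were over 1 (5.28%). The median of the 5 was 1.26, and that of all genes was -0.00. These 2 comparisons use the same 2 WT livers and are not independent of each other.

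**Figure D2:**
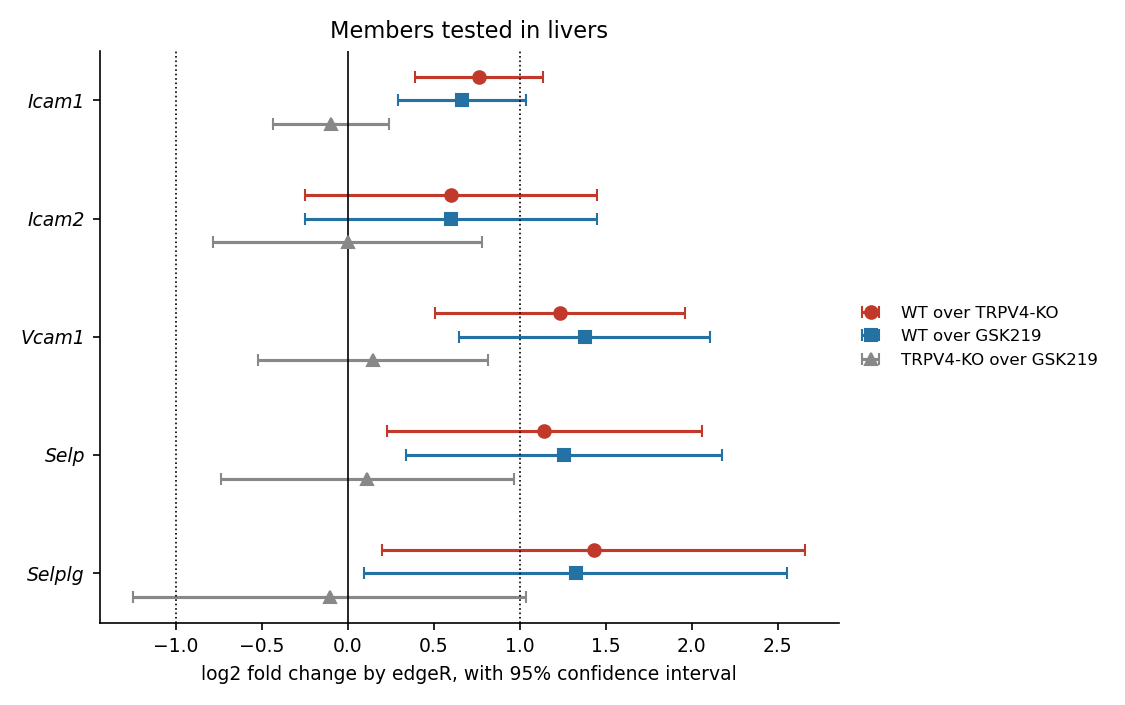
Log2 fold changes by edgeR with 95% confidence intervals (horizontal axis) for the 5 members tested in livers, as WT over TRPV4-KO (red circles), WT over GSK219 (blue squares) and TRPV4-KO over GSK219 (grey triangles). The dotted lines mark a 2-fold difference, and all grey triangles lie between -0.11 and 0.15.

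TRPV4-KO livers were compared with GSK219 livers as the genetic against the pharmacological loss of the channel. By edgeR 0 of 5 members were called, where 0.0992% of all genes were, and 0 had an unadjusted p under 0.05, where 6.12% of genes did. DESeq2 called 0 as well. For no member were all TRPV4-KO livers above all GSK219 livers, as they were in 5.85% of genes. Icam1 differed by a log2 fold change of -0.10, with a 95% confidence interval from -0.44 to 0.24, so a difference of 2-fold lay outside it. For Vcam1 the value was 0.15, with an interval from -0.52 to 0.81. Icam2 (-0.00, from -0.78 to 0.78) and Selp (0.11, from -0.74 to 0.96) were also bounded below 2-fold. The interval of Selplg was the widest and ran from -1.25 to 1.04 around -0.11, and without TRPV4-KO replicate 3 the value was -0.75. These intervals do not show that the levels were equal.

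Per kilobase of gene length, Icam1 had the highest level in WT livers, 7.80 ± 1.21 CPM per kb (SD, n = 2), followed by Vcam1 at 5.51 ± 1.65, Icam2 at 2.85 ± 0.744, Selplg at 2.70 ± 0.521, Selp at 1.92 ± 1.21 and Sele at 0.367 ± 0.292. Icam1 and Vcam1 were close, with 6.94 CPM per kb in the lower liver for Icam1 and 6.68 in the higher liver for Vcam1, and Icam2, Selplg and Selp could not be ordered beyond their spread. In TRPV4-KO livers the order was Icam1 at 4.59 ± 0.693 CPM per kb, Vcam1 at 2.34 ± 0.726, Icam2 at 1.87 ± 0.781, Selplg at 0.998 ± 0.628, Selp at 0.868 ± 0.132 and Sele at 0.0974 ± 0.0483 (SD, n = 3 each), and Vcam1 overlapped Icam2. The GSK219 livers had the same order of means, with 4.92 ± 0.374 for Icam1, 2.12 ± 0.534 for Vcam1, 1.88 ± 0.349 for Icam2, 1.08 ± 0.499 for Selplg, 0.803 ± 0.203 for Selp and 0.0483 ± 0.0658 for Sele. Vcam1 overlapped Icam2 here too, and in GSK219 replicate 1 Icam2 was the higher, at 1.98 against 1.53 CPM per kb. Selplg overlapped Selp in both TRPV4-KO and GSK219 livers. Per kilobase, Icam1 was thus above Vcam1 in every one of the 8 livers. This order depends on the gene lengths used, 4360 bases for Icam1 and 8870 bases for Vcam1, which may not be those of the transcripts expressed. Before division by length, Vcam1 was above Icam1 in both WT livers, at 59.3 and 38.5 against 37.7 and 30.2 CPM. Among the other livers the undivided order varied.

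Within the groups, the members shared a further order. Of the 6 members, 6 were highest in the liver with Xist reads among the WT livers, 6 among the TRPV4-KO livers and 5 among the GSK219 livers, where Vcam1 was the exception. For all genes tested, the liver with Xist reads was the highest in 50.4% of genes among WT, 44.6% among TRPV4-KO and 39.1% among GSK219 livers. The combination in all 3 groups held for 5 of 6 members and for 16.2% of genes. With 1 such liver per group, sex and the individual mouse cannot be told apart. WT remained the higher group on either side: for Vcam1 the ratio of WT to TRPV4-KO was 2.29 among livers with Xist reads (1 against 1) and 2.11 among livers with Y-linked reads (1 against 2), and for Icam1 it was 1.63 and 1.64. Selp was less even, with 2.75 and 1.34, as was Selplg, with 1.80 and 3.63.

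Levels of the 5 tested members went up and down together over the 8 livers. Pearson's r of their log2 CPM ran from 0.70 for Icam2 with Selp to 0.92 for Vcam1 with Selplg, with a median of 0.85 over 10 pairs. These values describe 8 livers that share the difference between WT and the other groups. The genes most like each member over the same livers, among 13215 genes, were Spn, Kcnt2 and Cygb for Icam1 (r from 0.973 to 0.984), Nagk, Bcl2l1 and Cd55 for Icam2 (0.964 to 0.972), and Aldh1a3, Orm2 and Slc39a13 for Vcam1 (0.981 to 0.987). For Selp they were Crip1, Ier3 and Sdcbp (0.965 to 0.977), and for Selplg they were Pkm, Itgb2 and Pik3cd (0.996 to 0.998). Spn encodes CD43, a leukocyte surface mucin, Itgb2 the β2 chain that LFA-1 and Mac-1 share, and Cygb cytoglobin, a marker of hepatic stellate cells. None of these 15 genes passed an adjusted p of 0.05 by edgeR in either comparison with WT. Orm2, an acute-phase protein of hepatocytes, differed most, with means of 936 CPM in WT, 168 CPM in TRPV4-KO and 146 CPM in GSK219 livers.

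**Figure D3:**
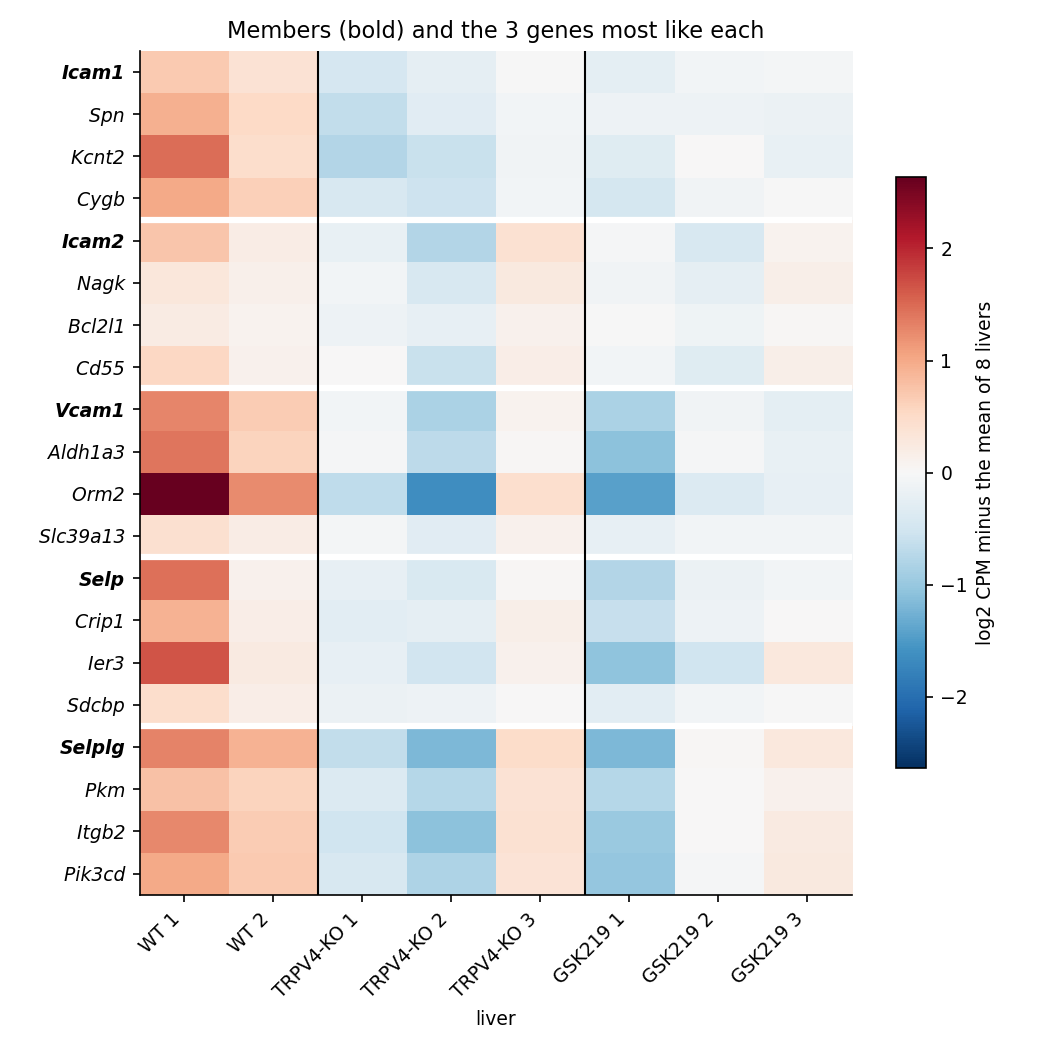
Log2 CPM of the 5 tested members (bold) and of the 3 genes most like each, in the 8 livers (columns), as the difference from the mean of all 8 livers (color scale, red above and blue below). Both WT columns are above the mean in all rows (for Vcam1 by 1.29 and 0.67), TRPV4-KO replicate 2 and GSK219 replicate 1 are lowest for Vcam1 and Selplg, and TRPV4-KO replicate 3 is above the mean for Selplg, by 0.48.

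The partners of these molecules were read from lists of genes that hold none of the 6. The list counts below at an unadjusted p under 0.05 stand against 9.5% of all genes for WT over TRPV4-KO and 5.87% for WT over GSK219, each higher in WT. Of leukocyte integrins and other leukocyte adhesion genes, 11 of 12 genes were tested. In WT over TRPV4-KO, 0 were called, 5 were higher in WT at an unadjusted p under 0.05, and the median log2 fold change was 1.13. In WT over GSK219, 0 were called, 5 had an unadjusted p under 0.05 and the median was 1.07. Itgal, the α chain of LFA-1, had 88.4 CPM in WT and log2 fold changes of 1.32 and 1.07 (edgeR adjusted p = 0.16 and 0.54). Itgb2 had 1.27 and 1.15 (edgeR adjusted p = 0.24 and 0.59), and Spn had 1.13 and 0.93.

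For the genes of integrin activation and arrest, which turn a chemokine signal into a tight grip, 16 of 17 were tested. There 0 were called in either comparison, 12 were higher in WT than in TRPV4-KO and 11 higher than in GSK219 at an unadjusted p under 0.05, and the medians were 1.07 and 0.94. Fermt3, encoding kindlin-3 of blood cells, had 1.16 and 1.15 (edgeR adjusted p = 0.18 and 0.54), and Apbb1ip, encoding RIAM, had 1.23 and 1.06 (0.14 and 0.53). Of the other endothelial ligands, 16 of 21 were tested and 0 were called in either comparison. The median was 0.35 over TRPV4-KO, with 6 higher in WT and 1 lower at an unadjusted p under 0.05, and 0.19 over GSK219, with 4 higher. Cx3cl1, the chemokine fractalkine that is tethered to endothelium, had 1.67 and 1.51 (edgeR adjusted p = 0.16 and 0.54), and Cdh5, the endothelial cadherin, had 0.95 and 0.72 (0.15 and 0.57). The smallest p of the list was that of Jam2 over TRPV4-KO (0.95, edgeR adjusted p = 0.14) and of Cd34 over GSK219 (1.66, edgeR adjusted p = 0.39).

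Enzymes that build selectin ligands, with 15 of 17 tested, had 0 calls and medians of 0.03 and 0.13. Fut7, the fucosyltransferase that completes sialyl Lewis x on leukocytes, was at 0.901 CPM in WT, with log2 fold changes of 2.26 and 2.26 (edgeR adjusted p = 0.25 and 0.57). For B4galt5, a galactosyltransferase, the log2 fold change of WT over TRPV4-KO was -0.69 (edgeR adjusted p = 0.14). Of cytokines and receptors that activate NF-κB, 14 of 16 were tested, 0 were called, and the medians were 0.68 and 0.54. Il1b had 2.41 and 1.43 (edgeR adjusted p = 0.12 and 0.57), and the interferon-γ receptor gene Ifngr1 had 0.84 and 0.66 (0.14 and 0.54). Of NF-κB subunits and feedback targets, 19 of 20 were tested, 0 were called, and the medians were 0.46 and 0.43. Cxcl1, a neutrophil chemokine, had 1.73 and 1.66 (edgeR adjusted p = 0.077 and 0.35), and Nfkbiz had 1.05 and 0.98 (0.11 and 0.42). Sod2, a mitochondrial superoxide dismutase, went the other way, with -0.54 in WT over TRPV4-KO (edgeR adjusted p = 0.17).

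Markers of the cells that can carry these molecules were summed in each liver. The summed level of 16 endothelial markers was 876 to 1029.5 CPM in WT, 616 to 931 CPM in TRPV4-KO and 709 to 956 CPM in GSK219 livers, and the ranges overlapped. The list shares Pecam1, Cdh5, Emcn and Stab1 with the list of endothelial ligands. Of these markers 0 were called, and the median log2 fold change was 0.24 over TRPV4-KO and 0.19 over GSK219. Summed macrophage and Kupffer cell markers (11 genes, 0 called) were 1928 to 2193 CPM in WT, 530.5 to 1159 CPM in TRPV4-KO and 558 to 1321 CPM in GSK219 livers, with medians of 1.36 and 1.09. Neutrophil markers (13 of 14 tested) summed to 89.9 to 107 CPM in WT, 8.1 to 20.4 CPM in TRPV4-KO and 7.49 to 18.9 CPM in GSK219 livers, with medians of 3.67 and 3.62. Of these, 3 were called higher in WT than in TRPV4-KO and 0 higher than in GSK219, where 0.265% and 0.0% of all genes were called in either direction. Stellate cell and fibroblast markers (12 genes, 0 called) were 433 to 646 CPM in WT, 153 to 353 CPM in TRPV4-KO and 206 to 348 CPM in GSK219 livers, with medians of 0.95 and 0.80. Platelet markers (5 of 11 tested, 0 called) were 34.0 to 38.6 CPM in WT, 15.4 to 26.5 CPM in TRPV4-KO and 15.3 to 25.3 CPM in GSK219 livers, with medians of 0.83 and 0.74. Most of the WT platelet sum came from Clec1b and Itga2b, with means of 21.1 and 11.1 CPM, against 1.92 CPM for Pf4 and 0.690 CPM for Ppbp. How far this sum measured platelets was not tested. At most 3 counts in every liver of the group were found for 1 neutrophil marker among WT, 2 among TRPV4-KO and 4 among GSK219 livers, and for 4 or 5 platelet markers in each group. Their part in the levels of the 6 genes was not tested.

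Set against these sums, the members differed. Per 1000 CPM of endothelial markers, Vcam1 was at 57.6 and 44.0 CPM in WT, 33.0, 22.0 and 27.7 CPM in TRPV4-KO and 19.1, 28.1 and 21.1 CPM in GSK219 livers, so the WT livers stayed above the rest. For Icam1 the same ratio was 36.7 and 34.5 CPM in WT, 24.6, 32.1 and 24.9 CPM in TRPV4-KO and 27.6, 27.5 and 23.6 CPM in GSK219 livers. Icam1 was lower in WT than in every TRPV4-KO liver per 1000 CPM of macrophage and Kupffer cell markers, and overlapped GSK219, with 17.2 and 15.7 CPM in WT, 23.6, 37.2 and 19.99 CPM in TRPV4-KO and 35.1, 21.6 and 17.1 CPM in GSK219 livers. Per 1000 CPM of stellate cell and fibroblast markers it was at 58.4 and 69.8 CPM in WT, 68.3, 128.9 and 65.5 CPM in TRPV4-KO and 95.1, 75.3 and 64.8 CPM in GSK219 livers, and the groups overlapped. Per 1000 CPM of macrophage and Kupffer cell markers, Selplg was at 5.98 and 5.17 CPM in WT, 4.53, 4.15 and 6.30 CPM in TRPV4-KO and 3.95, 5.16 and 4.75 CPM in GSK219 livers, and WT overlapped TRPV4-KO. Selplg was otherwise above all other livers in WT per 1000 CPM of endothelial markers, with 12.7 and 11.4 CPM against at most 7.83 CPM, and below all of them per 1000 CPM of neutrophil markers, with 146 and 92.9 CPM against 272 to 377 CPM. On the neutrophil scale Icam1, Icam2, Vcam1 and Selp were likewise lower in WT than in every other liver, since the neutrophil sum itself was far higher in WT. Per 1000 CPM of stellate cell and fibroblast markers, Selplg was at 20.3 and 23.0 CPM in WT and overlapped TRPV4-KO replicate 3, at 20.6 CPM. On the scale of macrophage and Kupffer cell markers, Vcam1 was at 27.0 and 19.98 CPM in WT, 31.7, 25.5 and 22.3 CPM in TRPV4-KO and 24.3, 22.0 and 15.2 CPM in GSK219 livers, and the groups overlapped too. Per 1000 CPM of stellate cell and fibroblast markers, Vcam1 was at 91.7 and 88.9 CPM in WT, 91.8, 88.3 and 73.1 CPM in TRPV4-KO and 65.8, 77.0 and 57.9 CPM in GSK219 livers, so WT overlapped TRPV4-KO but not GSK219. Per 1000 CPM of platelet markers, Selp was at 317 and 139 CPM in WT, 166, 215 and 168 CPM in TRPV4-KO and 165, 156 and 173 CPM in GSK219 livers, and WT replicate 2 was below all of them. In WT livers that scale rested mostly on Clec1b and Itga2b.

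**Figure D4:**
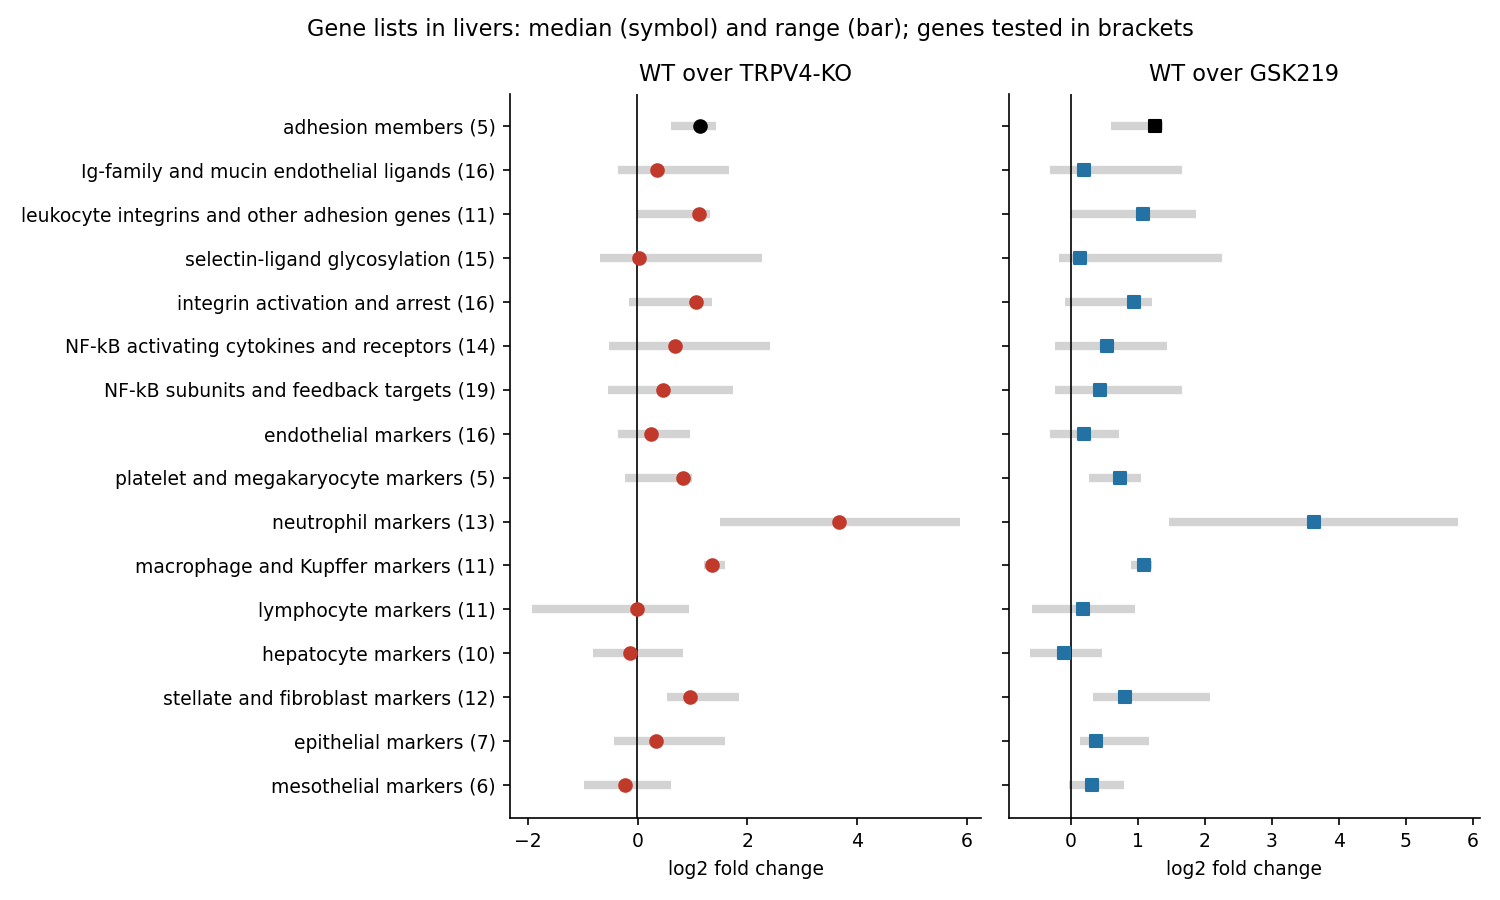
Median (symbol) and range (grey bar) of the log2 fold changes (horizontal axes) of the 5 tested members and of 15 gene lists in livers, for WT over TRPV4-KO and WT over GSK219, with the number of genes tested in brackets and a vertical line at the median of all genes. The members' medians, 1.14 and 1.26, stand beside those of the leukocyte integrin list (1.13 and 1.07), the integrin activation list (1.07 and 0.94), the macrophage list (1.36 and 1.09) and the stellate and fibroblast list (0.95 and 0.80), and the neutrophil list lies furthest right.

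In cultured PSCs, the question was whether the agonist of PIEZO1 alters these transcripts outside the tissue. The libraries held high levels of the stellate cell genes Col1a1, with normalized counts from 213908 to 463416, and Acta2, from 27293 to 133472. Gfap, another stellate cell marker, and the hepatocyte gene Alb were not listed, the leukocyte gene Ptprc was between 18.8 and 37.3, the endothelial gene Pecam1 between 67.3 and 222 and the epithelial gene Krt19 between 2882 and 6221. Markers of other cell types were not absent: with DMSO the epithelial genes Cldn4, Krt7 and Epcam had means of 11451, 9175 and 3749, and the mesothelial gene Msln one of 3137. The 8 epithelial markers summed to 76942 to 110668 with DMSO and 63577 to 141154 with Yoda1, the 6 mesothelial markers to 9409 to 19112 and 12997 to 19136. Which cells of the culture carried the 6 genes was not tested. Summed stellate and fibroblast markers were 815155 to 927775 with DMSO and 397834 to 500734 with Yoda1, and Piezo1 itself was between 13819 and 16698. Vcam1 and Icam1 were expressed at high levels, and Selp, Sele, Icam2 and Selplg at low ones. Per kilobase, the DMSO libraries gave 598 ± 260 for Vcam1, 399.6 ± 30.1 for Icam1, 15.3 ± 8.32 for Selp, 5.74 ± 5.13 for Icam2, 4.28 ± 2.09 for Sele and 1.88 ± 1.28 for Selplg (normalized counts per kb, SD, n = 3). Vcam1 and Icam1 were apart from the other 4 in every library, but per kilobase their own order turned over in preparation 3. Before division by length Vcam1 stayed above Icam1 there, at 2644 against 1894 with DMSO and 2490 against 2025 with Yoda1.

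With Yoda1, 0 of 3 members tested were called, where 1.52% of genes were, or 2.98% with the preparation as a replicate block. Icam1 had normalized counts of 1672, 1661 and 1894 with DMSO and 1069, 1309 and 2025 with Yoda1 in preparations 1, 2 and 3. It was lower with Yoda1 in preparations 1 and 2 and slightly higher in preparation 3. The log2 fold change was -0.30 (SE 0.22, limma adjusted p = 0.47), with a 95% confidence interval from -0.83 to 0.23. Leaving out the Yoda1 library of preparation 3 made it -0.56 (limma adjusted p = 0.035) and leaving out that of preparation 1 made it -0.095 (limma adjusted p = 0.80), in a range of adjusted p from 0.035 to 0.80 over all alternatives.

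Vcam1 had normalized counts of 6494, 6772 and 2644 with DMSO and 6031, 5613 and 2490 with Yoda1. It was lower with Yoda1 in all 3 preparations, as were 29.4% of genes, by log2 ratios of -0.11, -0.27 and -0.09. The preparations differed more than the treatments: the mean of preparations 1 and 2 was 2.51 times preparation 3 with DMSO and 2.34 times with Yoda1. The log2 fold change was -0.15 (SE 0.47, limma adjusted p = 0.88). With the replicate block its interval ran from -0.29 to -0.02 (limma adjusted p = 0.10), which leaves out a change of 1.5-fold in either direction.

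Selp had normalized counts of 91.0, 86.4 and 25.2 with DMSO and 74.3, 56.8 and 58.5 with Yoda1. It was lower with Yoda1 in preparations 1 and 2 and higher in preparation 3, and its log2 fold change was 0.10 (SE 0.49, limma adjusted p = 0.93). Sele was below the filter, with 9, 17 and 7 reads with DMSO and 7, 4 and 3 reads with Yoda1. Its normalized counts, 11.2, 19.1 and 7.07 against 6.58, 3.29 and 2.41, did not overlap between the treatments, as for 30.0% of the genes tested. Without the filter its log2 fold change was -1.39 (SE 0.49, limma adjusted p = 0.17). Icam2 had 4 to 22 reads and Selplg 2 to 13 reads per library, with no common direction over the preparations.

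**Figure D5:**
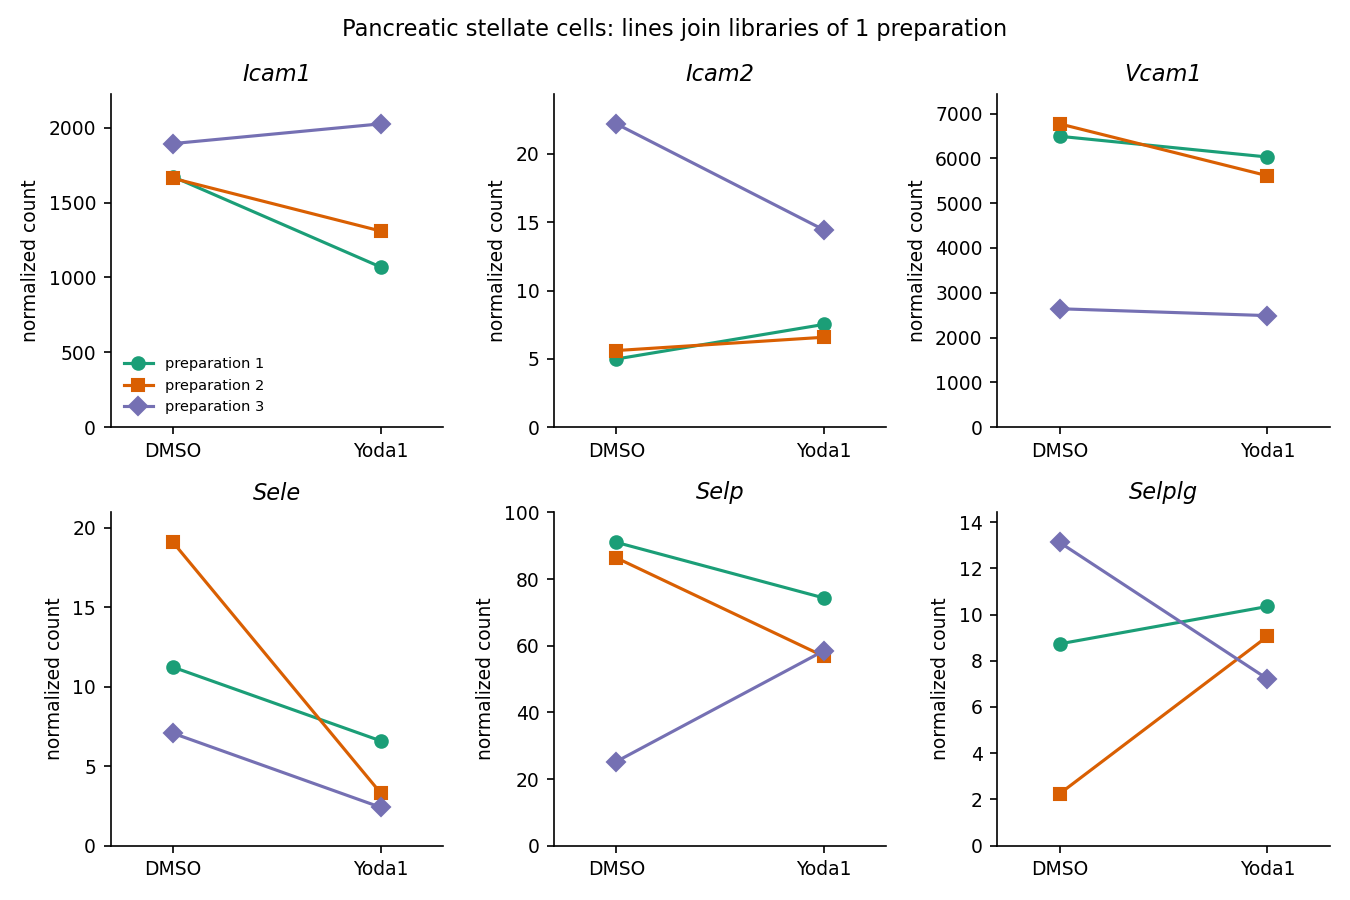
Normalized counts (vertical axes, starting at 0) of the 6 genes in PSCs with DMSO and with Yoda1, with a line for each of 3 preparations. Vcam1 separates preparation 3, at 2644 and 2490, from the others, and the lines of Selp and Selplg run in both directions.

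Other adhesion genes did pass the test in PSCs. Of the endothelial and junction ligands, 17 of 21 were tested, 1 was called higher with Yoda1 and 2 were called lower, where 1.52% of all genes were called in either direction. Jam2, a junctional adhesion molecule, rose (log2 fold change 1.88, SE 0.22, limma adjusted p = 0.012), whereas Aoc3, the adhesion protein VAP-1, fell (-1.23, SE 0.16, limma adjusted p = 0.015) and Cx3cl1 fell (-1.02, SE 0.13, limma adjusted p = 0.015). Of the leukocyte integrins and other leukocyte adhesion genes, 9 of 12 were tested. Itgb7 was called higher (3.35, SE 0.23, limma adjusted p = 0.0046) and Itgal lower (-1.71, SE 0.23, limma adjusted p = 0.015), both from low levels, with means of 10.4 and 27.3 with DMSO. No gene was called by limma in the lists of selectin-ligand enzymes (15 tested, 4 with an unadjusted p under 0.05), integrin activation (15 tested, 7), NF-κB activating cytokines and receptors (12 tested, 2) or NF-κB subunits and targets (20 tested, 3), where 22.7% of all genes had an unadjusted p under 0.05. Tlr4, a receptor for bacterial lipopolysaccharide, passed the adjusted p but not the fold (log2 fold change 0.53, SE 0.08, limma adjusted p = 0.018), as did B4galt5 (0.38, SE 0.06, limma adjusted p = 0.021), and Ccl2, a monocyte chemokine, had -1.29 (SE 0.35, limma adjusted p = 0.096). Over 6 PSC libraries, the genes most like Icam1 were Cox6b1, Atp5h and Inpp5d (r from 0.996 to 0.998), those most like Vcam1 were 2610034B18Rik, Pkhd1l1 and Whsc1 (0.994 to 0.996), and those most like Selp were Ate1, Ces2g and Txn1 (0.983 each). Icam1 and Vcam1, which went together in the livers, had an r of -0.64 over these libraries, which share 3 preparations.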

How the data were processed

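RNA-Seq data of 8 mouse livers and 6 PSC libraries were used, grouped by their labels. For the livers, the authors deposited raw counts per gene, with gene coordinates that match GRCm38 (98.3% of matched genes identical to GENCODE M21). Another 7 count columns of that table fitted none of the labels and were left aside. The deposited PSC table holds a signal, which is each gene's count over 1 size factor per library: 100% of 98886 values came out as whole reads within 0.01 read. The authors' own comparison of the PSCs (fold changes, their errors, test scores and p-values in 5 columns) was not used. HISAT2 2.0.5 and Trim Galore are named in the submitters' processing notes. The counting tool and its strand setting are not given in the sources used here.

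R 4.3.3 was used. Counts of livers entered edgeR 4.0.16 (TMM, filterByExpr with a minimum count of 10, robust quasi-likelihood test, all 8 livers in 1 fit), and PSC values limma 3.58.1 (log2 with a pseudocount of 1, trend, robust, genes with 10 or more in 3 or more libraries). P-values were adjusted over all genes tested by the Benjamini-Hochberg method. edgeR on the recovered PSC reads was an alternative. DESeq2 1.42.0 was an alternative for livers. Steps were tested on simulated data with changes larger than the fitted differences of the tested members, so the power at their size was not tested. The study's legends give each WT and TRPV4-KO liver library as a separate animal, and GSK219 libraries are numbered as biological replicates in their labels. Limits given for 0 counts use 3 counts and cover counting error only.

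Named were all members, of each list the genes with the smallest p (at most 4 per comparison), the 3 genes most like each member, and Trpv4 and Piezo1 as checks. Ptprc, Krt19, Alb, Gfap and the genes overlapping members, and the second comparison of a gene named by the first are given as context. Some items are not reported here. The members and the 15 lists were chosen with earlier results of these data known. Same-numbered PSC libraries share a preparation, and their deviations correlated at 0.26 to 0.53.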

Additional observations from a re-analysis of the deposited data

How the results depend on the processing

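None of the 5 members tested was called in any liver comparison under RLE normalization, no low-count filter, a sex term, no fold-change threshold, a fit to the compared groups alone or the replicate block. DESeq2 called 1 member in WT against TRPV4-KO and 1 in WT against GSK219, Vcam1 in both (1.23 and 1.37), and leaving out livers gave 0 to 1 called against TRPV4-KO, that being Selplg without TRPV4-KO replicate 3. No direction against WT was turned by any of these. Genes called numbered 40 for WT against TRPV4-KO, but 495 with DESeq2, 140 with no low-count filter, 429 with the replicate block, 325 with the sex term, 20 with only these groups and 3 to 722 with a liver left out (722 without TRPV4-KO replicate 3, and 3 and 4 without WT replicates 2 and 1). For WT against GSK219 they numbered 0, but 74, 8, 9, 4, 2 and 0 to 2 in the same order. For TRPV4-KO against GSK219 they numbered 15, but 93 with DESeq2, 38 with no filter, 34 with the sex term and 8 to 79 with a liver left out (79 without TRPV4-KO replicate 3). In the PSCs 230 genes were called, but 452 with the replicate block, 471 with edgeR and the replicate block, 705 with no fold-change threshold, 153 with limma without a mean-variance trend (added after seeing the data) and 25 to 280 with a library left out (25 and 27 without the Yoda1 and the DMSO library of preparation 2). The members' differences between TRPV4-KO and GSK219 changed sign with single livers left out, over -0.22 to 0.0014 for Icam1, -0.37 to 0.25 for Icam2, -0.043 to 0.38 for Vcam1, -0.080 to 0.25 for Selp and -0.75 to 0.20 for Selplg. With a PSC library left out, Vcam1 ran from -0.60 to 0.25 and Selp from -0.49 to 0.41, and edgeR on the recovered reads gave Selp -0.078. The cause of these shifts was not tested. Where a group was left with 1 liver, it was assumed to vary like the others. In the livers same-numbered samples share only a number (correlations from -0.48 to 0.58), and with the block the adjusted p against TRPV4-KO was 0.048 for Icam1 and 0.057 for Selplg, from a fit with no WT replicate 3. In the PSCs the block changed no member's call. With 2 WT livers and a biological coefficient of variation of 28.3%, a difference such as that of Icam2 was not resolved.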

Other observations

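Other cell types were read with the same lists. Lymphocyte markers (11 of 13 tested in livers, 0 called) had medians of -0.01 over TRPV4-KO and 0.18 over GSK219, with summed levels of 5.77 to 13.3 CPM in WT, 8.92 to 21.2 CPM in TRPV4-KO and 6.46 to 9.5 CPM in GSK219 livers. Hepatocyte markers (10 genes, 0 called) had medians of -0.13 and -0.10, with log2 fold changes over TRPV4-KO of -0.81 for Alb (edgeR adjusted p = 0.15) and 0.84 for the fibrinogen gene Fgb (edgeR adjusted p = 0.14), neither past the threshold. The hepatocyte markers summed to 70320 to 80137 CPM in WT, 89359 to 109704 CPM in TRPV4-KO and 88642 to 98730 CPM in GSK219 livers, so WT lay below both groups. Epithelial markers (7 of 8 tested, 0 called) had medians of 0.34 and 0.37, and mesothelial markers (6 genes, 0 called) of -0.23 and 0.31. The neutrophil genes called higher in WT than in TRPV4-KO were S100a8 (3.67, edgeR adjusted p = 0.028), Cxcr2 (3.33, 0.028) and Cd177 (4.93, 0.036).

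In the PSCs, 2 of 10 stellate and fibroblast markers tested were called lower with Yoda1, where 1.52% of all genes were called in either direction, namely Col3a1 (-1.19, SE 0.07, limma adjusted p = 0.0037) and Acta2 (-1.70, SE 0.22, limma adjusted p = 0.016). Among 13 endothelial markers tested, Kdr was called lower (-1.07, limma adjusted p = 0.030) and Lyve1 higher (1.82, limma adjusted p = 0.035). Of the platelet (4 tested), neutrophil (2), macrophage (7), hepatocyte (3), epithelial (8) and mesothelial (6) markers, limma called 0, although 2, 0, 3, 0, 0 and 1 of them had an unadjusted p under 0.05, against 22.7% of all genes. Of lymphocyte markers, 0 passed the filter.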
